A study of Gallus gallus with 6 samples.

Results

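HES5 and DLK1 are 2 Notch-related genes whose messages were lower when Wnt9a was over-expressed in this chicken (Gallus gallus) basilar papilla series. They are 2 of the 15955 genes in the deposited count table, found by name in the authors' tables of changed genes, HES5 as ENSGALG00000001141 and DLK1 as ENSGALG00000011244. Both were chosen because those tables call them changed between the same libraries, so their levels and differences are given as a description, with no test. The tissue was the basilar papilla, the hearing organ of the bird inner ear, dissected on embryonic day 6. Infection of the right otocyst took place on embryonic day 3, with RCAS(A)-Wnt9a, a replication-competent avian retrovirus carrying Wnt9a, or with RCAS(A), the parent virus, so every library comes from infected tissue and none from uninfected ears. Each group held 3 pools (replicates 1 to 3 of RCAS(A)-Wnt9a and 2 to 4 of RCAS(A)), and each pool held RNA from 24 papillas. Which cells carried the virus is not recorded.

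Notch signalling passes between touching cells. A ligand on one cell triggers cleavage of the Notch receptor on its neighbour, and the released intracellular part joins the DNA-binding protein RBPJ to switch on HES and HEY genes, which encode repressors of the basic helix-loop-helix kind. In the developing inner ear this exchange sorts hair cells from supporting cells, and HES5 is one of the repressors that hold back the hair cell factor ATOH1. DLK1 encodes a transmembrane protein with EGF-like repeats that resembles the Delta ligands but lacks their receptor-activating domain. In mammalian cells it has been described as an inhibitor of Notch, and it is best known as a marker of progenitor cells, preadipocytes and embryonic muscle among them.

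The libraries held 19200235 to 23017150 counts, and 12133 genes had enough counts to be tested. WNT9A, which the virus carries, reached 1340, 539 and 427 CPM (counts scaled to library size, TMM-adjusted) in the RCAS(A)-Wnt9a pools and 7.90, 6.87 and 10.3 CPM in the pools with the parent virus. Its log2 fold change was 6.53 (SE 0.70), in the direction of the group labels. Papilla and inner ear epithelial genes were detected in both groups. OTOA, which encodes the otoancorin of the acellular gel attachment, stood at 216 to 307 CPM in RCAS(A)-Wnt9a and 358 to 370 CPM in RCAS(A), and SOX2, a prosensory transcription factor gene, at 42.6 to 56.3 and 67.9 to 72.3 CPM in the same order of groups. The labels call the pools biological replicates, and no pair of them within a group agreed within counting noise.

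HES5, the repressor at the end of the pathway, was lower in all 3 RCAS(A)-Wnt9a pools than in any RCAS(A) pool. It had 224, 177 and 115 counts in RCAS(A)-Wnt9a replicates 1, 2 and 3, against 363, 254 and 287 counts in RCAS(A) replicates 2, 3 and 4. As CPM these were 10.1, 7.88 and 6.10 in the RCAS(A)-Wnt9a pools and 15.7, 11.6 and 14.2 in the RCAS(A) pools. RCAS(A)-Wnt9a replicate 1 was the highest of its group and RCAS(A) replicate 3 the lowest of its own, and only 1.55 CPM lay between them. Their exact Poisson intervals (95%, counting error only) overlapped, with 8.80 to 11.5 CPM for the RCAS(A)-Wnt9a pool and 10.2 to 13.1 CPM for the RCAS(A) pool. HES5 averaged 8.02 ± 1.99 CPM in RCAS(A)-Wnt9a and 13.8 ± 2.04 CPM in RCAS(A) (SD, n = 3 each). The fitted log2 fold change, RCAS(A)-Wnt9a over RCAS(A), was -0.78 with an SE of 0.18, so the RCAS(A)-Wnt9a level was 0.583 times that of RCAS(A).

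DLK1 showed a wider separation. It had 178, 258 and 227 counts in RCAS(A)-Wnt9a replicates 1, 2 and 3, against 574, 609 and 487 counts in RCAS(A) replicates 2, 3 and 4. Its levels were 8.01, 11.5 and 12.0 CPM in the RCAS(A)-Wnt9a pools, whereas the RCAS(A) pools had 24.8, 27.9 and 24.0 CPM. The groups lay 12.0 CPM apart at their nearest pools, RCAS(A)-Wnt9a replicate 3 and RCAS(A) replicate 4, and no counting interval of one group reached the other. DLK1 averaged 10.5 ± 2.19 CPM in RCAS(A)-Wnt9a and 25.6 ± 2.04 CPM in RCAS(A) (SD, n = 3 each). The log2 fold change was -1.28 (SE 0.14), which puts the RCAS(A)-Wnt9a level at 0.410 times that of RCAS(A).

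**Figure D1:**
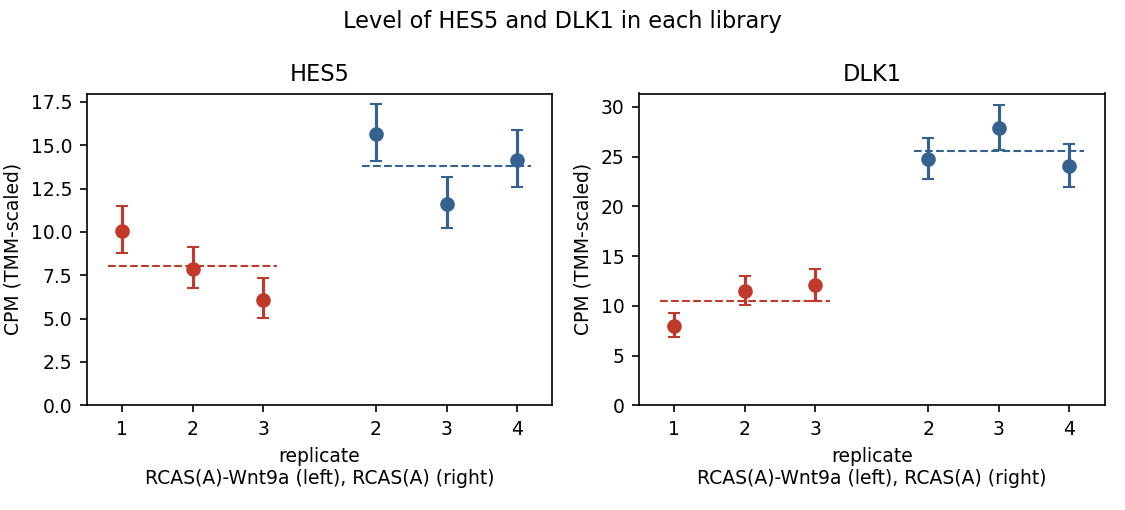
Level of HES5 (left) and DLK1 (right) in CPM, TMM-scaled, in each library; the RCAS(A)-Wnt9a pools are red and the RCAS(A) pools blue, bars are exact 95% Poisson intervals of the counts and dashed lines are group means. The HES5 intervals of RCAS(A)-Wnt9a replicate 1 and RCAS(A) replicate 3 overlap, while the DLK1 pools of RCAS(A)-Wnt9a end at 12.0 CPM, below all RCAS(A) pools.

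In bulk tissue a lower level can come from fewer cells that express a gene or from less RNA per cell, and these cannot be told apart here. Among all tested genes, 9.16% had every RCAS(A)-Wnt9a library below every RCAS(A) library, and 0.841% were called lower (edgeR adjusted p under 0.05). As the authors' calls chose HES5 and DLK1, nothing is read from their places in these shares. By size, 79 of the 12133 tested genes had a lower log2 fold change than HES5 and 26 a lower one than DLK1, places that the same choice favours.

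Both genes varied between pools by more than counting. For HES5 the coefficient of variation was 24.8% in RCAS(A)-Wnt9a and 14.8% in RCAS(A), where counting alone gives 7.62% and 5.76%. For DLK1 it was 20.8% in RCAS(A)-Wnt9a and 7.98% in RCAS(A), against 6.73% and 4.24% from counting. The biological coefficient of variation from the fit was 14.4% for HES5 and 11.4% for DLK1, above the trend of genes at their levels, 11.8% and 9.91%.

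Within the groups the genes did not vary in step. RCAS(A)-Wnt9a replicate 1 held the highest HES5 and the lowest DLK1 of its group, and also the highest WNT9A. Its log2 deviation from the group mean was 0.36 for HES5 and -0.37 for DLK1. RCAS(A)-Wnt9a replicate 3, with the lowest WNT9A, stood the other way, at -0.36 for HES5 and 0.22 for DLK1. Among the RCAS(A) pools, replicate 3 had the lowest HES5 and the highest DLK1, with deviations of -0.24 and 0.13. With 3 pools per group a relation to the WNT9A level was not tested.

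The ratio of DLK1 to HES5 counts, which does not depend on depth, therefore spread widely. It was 0.795, 1.46 and 1.97 in RCAS(A)-Wnt9a replicates 1, 2 and 3, and 1.58, 2.40 and 1.70 in RCAS(A) replicates 2, 3 and 4. The groups overlapped in this ratio, since RCAS(A)-Wnt9a replicate 3 lay above 2 of the RCAS(A) pools. The log2 fold change of DLK1 was 0.51 below that of HES5 (a difference of -0.51, not tested), and the overlapping ratios show how far single pools depart from it.

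Per transcript length, both messages were of middling abundance in RCAS(A) and ranked lower in RCAS(A)-Wnt9a. The authors' deposited FPKM table (fragments scaled to transcript length and library size, 1 pooled value per group, with no SD) lists HES5 at 6.79 FPKM in RCAS(A)-Wnt9a and 12.1 FPKM in RCAS(A). The authors' deposited FPKM table lists DLK1 at 9.92 FPKM in RCAS(A)-Wnt9a and 23.4 FPKM in RCAS(A). DLK1 was thus 1.46 times HES5 per length in RCAS(A)-Wnt9a and 1.94 times in RCAS(A), in the authors' deposited values. In RCAS(A), 47.1% of the genes with an FPKM above 0 in the authors' deposited table were lower than HES5 and 64.5% lower than DLK1. The same shares in RCAS(A)-Wnt9a, from the authors' deposited values, were 36.7% for HES5 and 43.1% for DLK1. The lengths implied by counts and FPKM were 1.15 kb for HES5 and 1.09 kb for DLK1. Tested genes were cut by implied length into 10 equal bins, and both genes were in bin 2. Of its 1183 genes, 10 had a lower log2 fold change than HES5 and 3 a lower one than DLK1, and the median of the bin was -0.04. Both genes were chosen as changed between these libraries, so nothing is read from their places in the bin.

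The values on which the genes were chosen differ between the authors' own fits. The authors' deposited edgeR table gives HES5 a log2 fold change of -0.78 with an adjusted p of 0.00211, and DLK1 -1.28 with an adjusted p of 2.03e-14. The authors' deposited DESeq2 table gives -0.44 for HES5 (adjusted p = 0.00179) and -0.86 for DLK1 (adjusted p = 8.5e-15). The counts fitted by DESeq2 with a prior that pulls fold changes towards 0 gave -0.44 and -0.85, and without the prior -0.78 and -1.28.

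**Figure D2:**
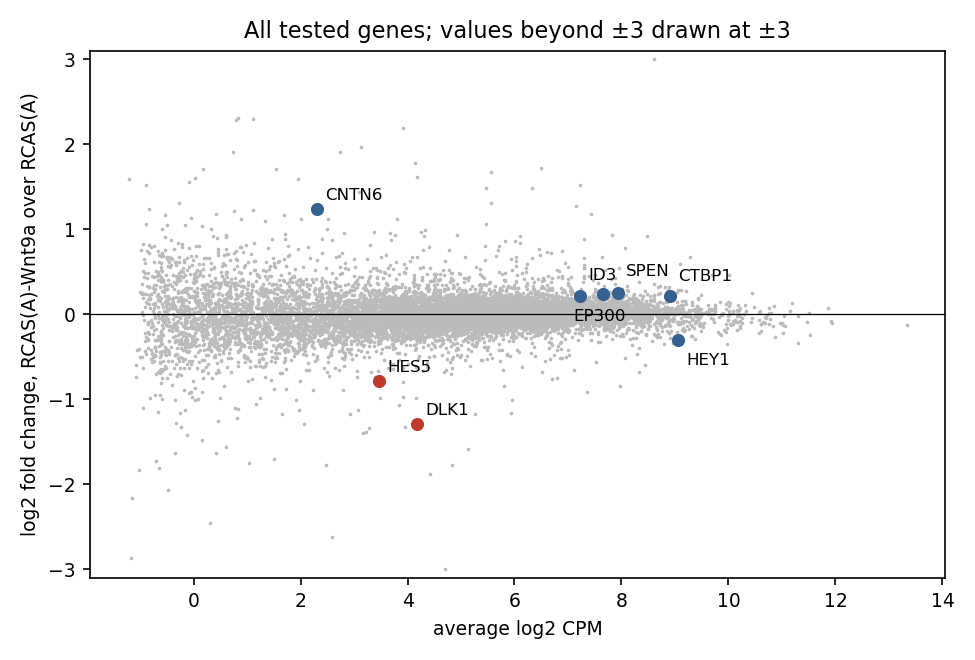
Log2 fold change, RCAS(A)-Wnt9a over RCAS(A), against average log2 CPM for the 12133 tested genes (grey), with values beyond 3 drawn at the edge; HES5 and DLK1 are red and the 6 other named Notch list genes blue. HES5 (-0.78) and DLK1 (-1.28) lie below 0 and CNTN6 (1.24) above it, while the other 5 list genes lie nearer 0. All the coloured genes have a name because the authors call them changed, so their distance from 0 is a description.

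Other Notch pathway genes were read through 6 lists with 89 distinct genes, covering ligands and ligand-like proteins, receptors, processing and trafficking, the nuclear complex, targets and feedback, and proneural factors. Only genes in the authors' tables of changed genes have a name in the files, so 6 list genes besides HES5 and DLK1 could be read, and the other 81 were not analysed here. The 6 were named because the authors' fits call them changed, and their counts are no independent evidence of a direction. Of the 6, CNTN6 rose, none fell and 5 missed the threshold (edgeR quasi-likelihood test, adjusted p under 0.05). Among all tested genes 1.43% were called higher and 2.27% were called in either direction. At an unadjusted p under 0.05 the same fit had 5 higher and 1 lower. No share of all tested genes is given at that level, so nothing is read from those 2 counts. At an adjusted p under 0.05 limma-voom called CNTN6 alone, and DESeq2 called all 6, 5 higher and 1 lower. Over all genes limma-voom called 285 and DESeq2 437, against 276 by edgeR. As the authors' fits gave the 6 their names, nothing is read from the DESeq2 count. The median log2 fold change of the 6 was 0.23, and that of all tested genes was -0.00369. The 6 have a name only because they were called changed, so the medians show no shift of the lists.

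CNTN6 encodes contactin-6, a neural cell adhesion protein that has been described as a Notch ligand in rodents. Its levels were 6.12, 7.17 and 7.32 CPM in RCAS(A)-Wnt9a replicates 1, 2 and 3, and the RCAS(A) pools had 3.54, 2.79 and 2.32 CPM (replicates 2, 3 and 4). Every RCAS(A)-Wnt9a pool stood above every RCAS(A) pool, as in 9.82% of all tested genes. The log2 fold change was 1.24 (SE 0.19, edgeR adjusted p = 0.0030), so of the ligand-like members on the list with a name, CNTN6 was higher where DLK1 was lower.

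The list of nuclear factors had 3 named members, none of them past the edgeR threshold in the fit of all 6 libraries. In each of them no RCAS(A)-Wnt9a pool was as low as any RCAS(A) pool, which held for 9.82% of all tested genes; the 3 have a name only because the authors call them changed, so nothing is read from this count. EP300, an acetyltransferase that the active Notch complex recruits, averaged 217 ± 4.38 CPM in RCAS(A)-Wnt9a and 185 ± 10.5 CPM in RCAS(A) (SD, n = 3 each; log2 fold change 0.23, edgeR adjusted p = 0.0681). SPEN, a corepressor that binds RBPJ when Notch is silent, averaged 265 ± 2.83 CPM in RCAS(A)-Wnt9a and 222 ± 24.3 CPM in RCAS(A) (SD, n = 3 each; 0.26, edgeR adjusted p = 0.114). Without RCAS(A) replicate 3, its lowest pool, the log2 fold change of SPEN was 0.17 (edgeR adjusted p = 0.299). With replicates 2 and 3 alone and a replicate block, SPEN (0.31) and EP300 (0.28) passed (edgeR adjusted p = 0.00487 and 0.0129). The same libraries without the block gave 0.30 and 0.28, and both missed (edgeR adjusted p = 0.167 and 0.158). CTBP1, a corepressor of the same silencing complex, averaged 517 ± 14.9 CPM in RCAS(A)-Wnt9a and 445 ± 34.3 CPM in RCAS(A) (SD, n = 3 each; 0.22, edgeR adjusted p = 0.138).

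Besides HES5 the target list had a name for HEY1 and ID3. HEY1 encodes a repressor related to the HES proteins and was the only one of the 6 with a negative log2 fold change. It stood at 424, 478 and 532 CPM in RCAS(A)-Wnt9a replicates 1, 2 and 3, and at 564, 567 and 633 CPM in the RCAS(A) pools (replicates 2, 3 and 4). Every RCAS(A)-Wnt9a pool lay below every RCAS(A) pool, as in 9.16% of all tested genes. The log2 fold change of -0.30 (SE 0.08) missed the threshold (edgeR adjusted p = 0.0951). Without RCAS(A)-Wnt9a replicate 3, the pool with the highest HEY1 of its group and the lowest HES5, it was -0.38 and passed (edgeR adjusted p = 0.0178). Without any one of the other 5 libraries it was -0.33 to -0.22 and missed (edgeR adjusted p = 0.160 to 0.369), and over all alternatives the adjusted p ran between 0.0144 with DESeq2 and 0.701 with replicates 2 and 3 alone and no block. ID3, whose product blocks basic helix-loop-helix factors, stood at 158, 166 and 160 CPM in RCAS(A)-Wnt9a and 137, 144 and 137 CPM in RCAS(A) (log2 fold change 0.21, edgeR adjusted p = 0.0762). HEY1 and HES5 thus had log2 fold changes of the same sign and ID3 one of the other sign.

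**Figure D3:**
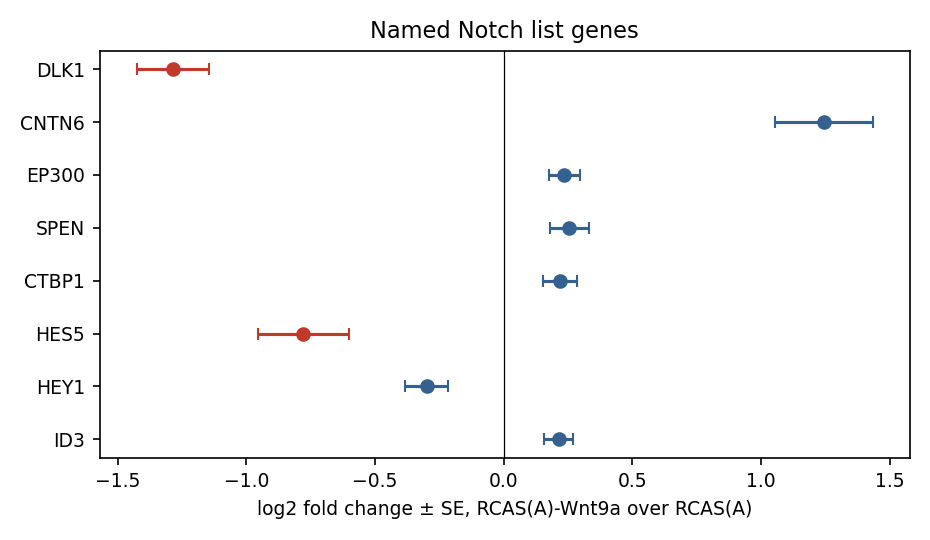
Log2 fold change with its SE, RCAS(A)-Wnt9a over RCAS(A), of the 8 Notch list genes with a name in the files; DLK1 and HES5, chosen on these values, are red and the 6 other genes blue. Of the blue points CNTN6 (1.24) passed the threshold, and EP300, SPEN, CTBP1, ID3 and HEY1 lie between -0.30 and 0.26.

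Profiles over the 6 libraries were compared by the root mean square difference of log2 CPM, each gene centred on its own mean, among 10916 genes with an average log2 CPM of at least 1. Of these, 456 carry a symbol, and they are genes the authors call changed, so closeness includes the difference between the groups. It also includes the pattern within each group, so the choice of the closest genes favours a shared order of pools. The named genes closest to HES5 were RGR, SEMA3D, LUM, NXPH2 and FAM19A4, at differences of 0.13 to 0.22 log2 units, with 1 to 13 unnamed genes closer. RGR encodes an opsin-like receptor, SEMA3D a secreted semaphorin, LUM the matrix proteoglycan lumican and NXPH2 a neurexophilin. RGR, the closest, had 11.9, 11.4 and 9.55 CPM in RCAS(A)-Wnt9a replicates 1, 2 and 3, where the RCAS(A) pools (replicates 2, 3 and 4) had 21.3, 15.4 and 20.6 CPM. Like HES5, it was lowest in RCAS(A)-Wnt9a replicate 3 and, of the RCAS(A) pools, in replicate 3.

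The named genes closest to DLK1 followed it more tightly. FZD10, a Wnt receptor gene, IL16, a cytokine gene, KCNJ15, an inward-rectifier potassium channel gene, SLC9A4, a sodium-proton exchanger gene, and CDH8, a cadherin gene, differed from it by 0.08 to 0.14 log2 units, and no unnamed gene was closer than any of them. FZD10 had 27.2, 43.3 and 42.3 CPM in the RCAS(A)-Wnt9a pools and 84.0, 86.6 and 81.2 CPM in the RCAS(A) pools, in the same order of replicates. IL16 had 6.98, 10.3 and 9.08 CPM in the RCAS(A)-Wnt9a pools and 20.9, 23.4 and 21.4 CPM in the RCAS(A) pools. Within RCAS(A)-Wnt9a all 5 were lowest in replicate 1, as DLK1 was, which their choice by closeness over the same libraries favours. DLK1 and HES5 differed from each other by 0.49 log2 units. HES5 stood at place 101 among the named genes by closeness to DLK1, with 76 unnamed genes closer. DLK1 stood at place 159 by closeness to HES5, with 6542 unnamed genes closer.

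**Figure D4:**
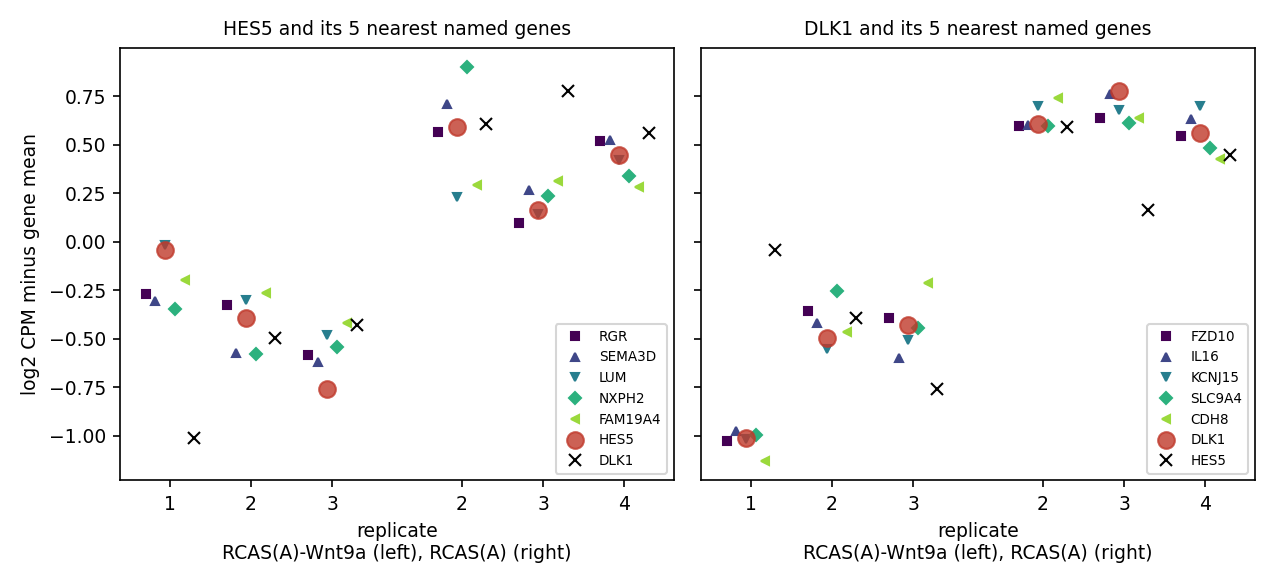
Log2 CPM minus the gene's mean over the 6 libraries for HES5 (left) and DLK1 (right), each as red circles with its 5 closest named genes, and the other gene of the pair as crosses; within each panel the RCAS(A)-Wnt9a replicates are on the left. The genes around DLK1, chosen by closeness over these libraries, all sit lowest in RCAS(A)-Wnt9a replicate 1, where HES5 is the highest of its group.

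Genes next to each member were read by the positions in the deposited FPKM table, which the submitters' processing notes place on galGal4. HES5 is listed on chromosome 21 from 1432927 to 1434563 and DLK1 on chromosome 5 from 48844045 to 48853652, and no other listed gene overlaps either. Of the 10 genes nearest DLK1 (5 on each side), all were tested and 1 was called, where 2.27% of all tested genes were. This was BEGAIN (ENSGALG00000011236, chromosome 5, 48566384 to 48715173), the next gene on the left at 129 kb, which encodes a protein of postsynaptic densities in mammals. The GRCg7b annotation of RefSeq also lists BEGAIN as the next protein-coding gene to DLK1. It was named after its values were seen.

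BEGAIN had 13.8, 16.2 and 15.2 CPM in RCAS(A)-Wnt9a replicates 1, 2 and 3, where the RCAS(A) pools (replicates 2, 3 and 4) had 23.6, 20.6 and 27.5 CPM. Every RCAS(A)-Wnt9a pool lay below every RCAS(A) pool, as in 9.16% of all tested genes. BEGAIN fell by 0.66 on the log2 scale (SE 0.12, adjusted p = 0.00908 by edgeR). Without RCAS(A) replicate 4, its highest pool, the log2 fold change was -0.55 and the edgeR adjusted p 0.0630. That fit called 146 genes in all, against 276 with every library. Without RCAS(A) replicate 2 the fit called 148 genes, and BEGAIN was at -0.67 (edgeR adjusted p = 0.0444). A dependence of the call on RCAS(A) replicate 4 was not tested. The edgeR adjusted p of BEGAIN stayed between 0.00727 and 0.0444 without any one of the libraries other than RCAS(A) replicate 4. With replicates 2 and 3 alone its log2 fold change was -0.49. The edgeR adjusted p of that fit was 0.122 without a replicate block and 0.0320 with it. The other 9 flanking genes of DLK1 had log2 fold changes of -0.52 to 0.07.

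Around HES5, 9 of the 10 nearest genes were tested and 0 were called by edgeR, DESeq2 or limma-voom. Among all tested genes edgeR called 2.27%. At an unadjusted p under 0.05 the tools had, in that order, 3, 2 and 3 of the 9. No share of all tested genes is given at that level, so nothing is read from those counts. The 2 unnamed genes closest on the left, at 3.32 kb and 16.1 kb, had log2 fold changes of -0.51 and -0.53 (SE 0.23 and 0.19, edgeR adjusted p = 0.369 and 0.244). The 2 closest on the right, both at 0.963 kb, had 0.06 and 0.05. The 9 tested genes ran from -0.53 to 0.79. The highest was an unnamed gene further to the left (SE 0.28, edgeR adjusted p = 0.221). Chicken carries further HES5-like genes, and reads of near-identical copies could have been split or shared by the counting.

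**Figure D5:**
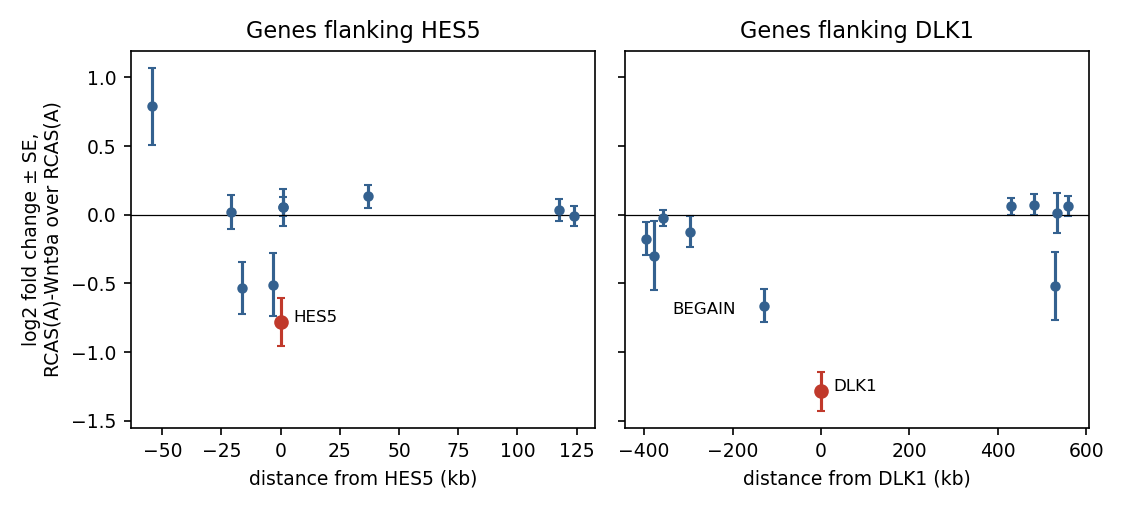
Log2 fold change with its SE, RCAS(A)-Wnt9a over RCAS(A), of the tested genes flanking HES5 (left) and DLK1 (right, with BEGAIN labelled), against the distance between gene ends in kb; red points are HES5 and DLK1. BEGAIN (-0.66) is the only flanking gene past the threshold.

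Markers of cell types in or near the papilla moved between the groups too, and their part in the HES5 and DLK1 differences was not tested. Only markers in the authors' tables have a name, so the named ones were already called changed by the authors and their counts are a description. Among all tested genes 0.841% were called lower, 1.43% higher and 2.27% either way by edgeR, and nothing is read from the counts of the lists against these shares. Of the supporting and nonsensory cell list, to which HES5 expression in the inner ear belongs, 6 of 18 genes were named: 3 fell, 1 rose and the other 2 missed edgeR's threshold. Their summed level was 322 to 451 CPM in RCAS(A)-Wnt9a and 569 to 588 CPM in RCAS(A). Most of this sum was OTOA, 1 of the 2 that missed, at 216 to 307 and 358 to 370 CPM in the same order. In the hair cell list 3 of 17 were named and 2 fell. The other, PCDH15, which encodes a protocadherin of the hair bundle, missed the threshold with a log2 fold change of 0.54 (edgeR adjusted p = 0.0702), and its pools stood at 12.9 to 18.2 CPM in RCAS(A)-Wnt9a and 10.2 to 11.7 CPM in RCAS(A). The list had sums of 60.2 to 71.2 CPM in RCAS(A)-Wnt9a and 83.0 to 85.6 CPM in RCAS(A). In the ganglion neuron list 2 of 15 were named and both fell, with sums of 165 to 179 CPM in RCAS(A)-Wnt9a and 225 to 261 CPM in RCAS(A).

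Of the 19 genes in the periotic mesenchyme list 9 were named: by edgeR 3 rose, 1 fell and the remaining 5 were not called, with sums of 2010 to 2214 CPM in RCAS(A)-Wnt9a and 1702 to 1773 CPM in RCAS(A). The single named gene of the 8 in the glia list rose, with 12.3 to 17.1 CPM in RCAS(A)-Wnt9a and 9.62 to 10.5 CPM in RCAS(A). Both named genes of the 15 in the endothelium and blood list rose, with sums of 176 to 187 and 149 to 155 CPM in the same order. Among all tested genes edgeR called 1.43% higher and 0.841% lower. The genes of these lists have a name only because the authors call them changed, so nothing is read from the counts.

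Striated muscle markers, whose tissue expresses DLK1 in mammalian embryos, were at low levels. Of 11 genes 5 were named and all 5 missed edgeR's threshold with negative log2 fold changes. At an unadjusted p under 0.05 edgeR, DESeq2 and limma-voom each had all 5. At an adjusted p under 0.05 DESeq2 called 1 and limma-voom 0. The authors' calls gave these genes their names, so nothing is read from the counts. The sums of the 5 were 5.30 to 7.27 CPM in RCAS(A)-Wnt9a and 11.5 to 28.7 CPM in RCAS(A). Of these, MYOD1, a muscle transcription factor gene, had no count in RCAS(A)-Wnt9a replicate 3. The highest sum was in RCAS(A) replicate 3, the pool with the highest DLK1, but the other RCAS(A) pools did not keep this order. RCAS(A) replicate 4 had a higher sum than replicate 2 (13.0 against 11.5 CPM) and a lower DLK1 (24.0 against 24.8 CPM). The DLK1 counting intervals of these pools overlapped (21.9 to 26.3 and 22.8 to 26.9 CPM), so their order in DLK1 lies within counting error. Within RCAS(A)-Wnt9a, replicate 3 was highest in both, while the lowest sum was in replicate 2 and the lowest DLK1 in replicate 1. A relation of these markers to DLK1 was not tested. Without RCAS(A) replicate 3 the log2 fold change was -1.22 for DLK1 and -0.89 for HES5.

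The median log2 fold changes of the named markers were -0.48 for supporting and nonsensory cells, -0.45 for hair cells, -0.50 for ganglion neurons, 0.29 for periotic mesenchyme and -1.57 for striated muscle. With 1 library left out at a time, the called markers numbered 2 to 5 for supporting and nonsensory cells, 0 to 3 for hair cells and 2 to 6 for periotic mesenchyme. Both ganglion neuron markers were called in each of these fits, at most 1 of the endothelium and blood markers in any, and the glia marker in some of them. The same fits called 146 to 294 genes in all, against 276 with every library. The markers have a name only because the authors call them changed, so nothing is read from these medians and counts.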

How the data were processed

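RNA of 6 pools of basilar papillas was sequenced from a stranded Illumina kit, per the labels' protocols. Per the submitters' processing notes, TopHat2, DESeq, edgeR and DESeq2 were used with galGal4. How reads were counted, with which strand setting and annotation, is not given in the sources used here, and antisense or overlapping genes therefore cannot be told apart. One deposited table holds raw counts for each Ensembl gene and library. Per the file headers, the authors' DESeq2 table gives a mean normalized signal, log2 fold changes, a Wald score and p-values. The authors' edgeR table gives log2 fold changes and p-values under a header shifted by 1 column. The deposited FPKM values are pooled by group and were not tested.

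Genes kept by filterByExpr were scaled by TMM and fitted across all 6 libraries with edgeR 4.0.16 (R 4.3.3) by a robust quasi-likelihood fit, with two-sided tests and a threshold of 0.05 on Benjamini-Hochberg adjusted p; the SE is the log2 fold change over the root of F. The fit was tested on simulated counts. DESeq2 1.42.0, limma 3.58.1, 2 scalings, 2 filters, a replicate block and leaving out each library were alternatives. Names come from the authors' tables and were matched to RefSeq GRCg7b symbols for all but 9 of 493 genes (150 by accession, 324 by symbol, 10 by synonym). Log2 CPM for profiles used a prior count of 2. The genes, lists and tests were chosen with earlier results of these data known. The genes named are HES5, DLK1, WNT9A, all named Notch list members and the 5 closest profiles to each of HES5 and DLK1. OTOA, SOX2 and TECTB (tissue checks), BEGAIN (next to DLK1), PCDH15 and MYOD1 (markers) were added after their values were seen. Python 3.11.15, pandas 2.3.3 and scipy 1.17.1 made the tables. Sequences were not used here.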

Additional observations from a re-analysis of the deposited data

How the results depend on the processing

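Over 16 alternatives the log2 fold changes of HES5 and DLK1 moved by less than the spread between replicates in 15 each and changed sign in none, which was close to fixed because their groups do not overlap. The exception was DESeq2 run with a fold-change prior, at -0.44 for HES5 and -0.85 for DLK1. With 1 library left out, HES5 lay between -0.98 (without RCAS(A)-Wnt9a replicate 1) and -0.62 (without RCAS(A)-Wnt9a replicate 3), and DLK1 between -1.39 and -1.12 (without the same replicates 3 and 1). The number of changed genes, 276, was 437 with DESeq2 and 437 with its prior, and 146 to 294 with 1 library left out. Among the 6 other named Notch genes, 1 changed, against 6 with DESeq2, 6 with its prior, 2 with the transcript length trend removed and 1 to 2 with 1 library left out. The title numbers share only 2 and 3, whose deviations correlated at -0.01 and 0.19, so they were not taken to pair the pools. A replicate block on those 4 libraries gave 506 changed genes, 3 Notch genes, and -0.96 for HES5 and -1.16 for DLK1; without the block the same libraries gave 225, 1, -0.96 and -1.16. The prior, the length trend and the fit without the block were chosen after seeing the data. Causes were not tested. CNTN6 passed in every fit named here. Depth limits comparisons of single pools for HES5, which had 115 to 363 counts per library.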
